A study of Mus musculus with 12 samples.

Results

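High-fat (HF) and low-fat (LF) diets were compared in the livers of mice that carried a floxed gene for thrombospondin 1 (TSP1, gene Thbs1) and that the labels list as wild type. The comparison took the 3 libraries titled as HF floxed and the 3 titled as LF floxed, 6 of the 12 libraries of the series, and covered all genes with a name. Every mouse was of the mixed strain 129/B6, was 10 months old and had been on its diet for 8 months, and no sex is given. RNA was extracted from whole liver, so each value sums over all cell types. The other 6 libraries came from mice with a macrophage-specific Thbs1 knockout on the same diets and serve here only for values set beside those of the floxed mice. The promoter that drives the knockout is not given in the sources used here. Replicates are numbered 1 to 3 in the labels without naming animals, so each p-value reflects only how far these libraries differ among themselves, and that may be partly technical.

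Thrombospondin 1 is a secreted matrix protein that binds CD36 and CD47 and can release active TGF-beta from its latent form. A liver on a long high-fat diet takes up more fatty acid than it burns or exports and stores the surplus as triglyceride in lipid droplets, whose coat proteins (perilipins and CIDE proteins) control how large they grow. Stored fat can be followed by inflammation, in which macrophages gather and antigen-presenting genes are switched on, and by scarring, in which hepatic stellate cells lay down collagen.

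The 6 libraries held 16131506 to 16536016 estimated counts each. Albumin (Alb) took 9.30 ± 1.49% of the counts of named genes on LF and 5.57 ± 0.40% on HF (mean ± SD, n = 3), as liver tissue would show, and the 29 hepatocyte genes of a list chosen for this work were all tested. Libraries of 1 diet were not equally far apart. HF replicates 1 and 2 differed by a chi-square of 8.54 per degree of freedom over genes, against 173 for either of them and HF replicate 3 and 47.8 to 94.0 between LF libraries. Each pair differed by more than sampling noise, so all 6 were counted as separate libraries, and the results were also computed with HF replicates 1 and 2 averaged. The deposited file of HF replicate 3 is named in another form than the other 5. In the values below the replicates stand in the order 1, 2, 3.

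On HF, 61 genes were higher and 21 lower at a false discovery rate of 5% with edgeR's quasi-likelihood test, which is 0.505% and 0.174% of the 12077 genes tested. In all 82 of them the 3 HF libraries lay wholly on 1 side of the 3 LF libraries, as they did in 11.6% of all tested genes upward and 12.5% downward. The changes were large among the genes that rose: 60 of 61 moved by more than 2-fold and 35 by more than 4-fold, with a median log2 change of 2.37. Among the 21 that fell the median was -1.33, and 3 moved by more than 4-fold. Over all tested genes the median log2 change was 0.00, with 49.6% higher on HF.

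How many genes passed depended on the fit. With all 12 libraries in 1 fit edgeR called 0 genes, with 1532 at an unadjusted p under 0.05, against 2319 in the fit of 6 libraries (9.91% of genes higher and 9.29% lower). Averaging HF replicates 1 and 2 left 4 genes higher and 0 lower, namely Cyp2b9, Cidea, Saa1 and Clstn3, although all 82 kept their direction. Leaving out HF replicate 3 gave 555 higher and 297 lower, and leaving out HF replicate 1 or 2 gave 3 or 4 higher and 0 lower. Without LF replicate 2 the counts were 12 higher and 2 lower, and without LF replicate 3 they were 5 higher and 0 lower. On FPKM, a level scaled to gene length and library size, limma called 46 higher and 4 lower, so 92.0% of calls were upward, against 74.4% on counts. In that fit the median log2 change was 0.19, over the 9901 genes with at least 1 FPKM in 3 libraries. Beside edgeR's fold changes, the printed FPKM values mostly show larger rises and smaller falls.

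**Figure D1:**
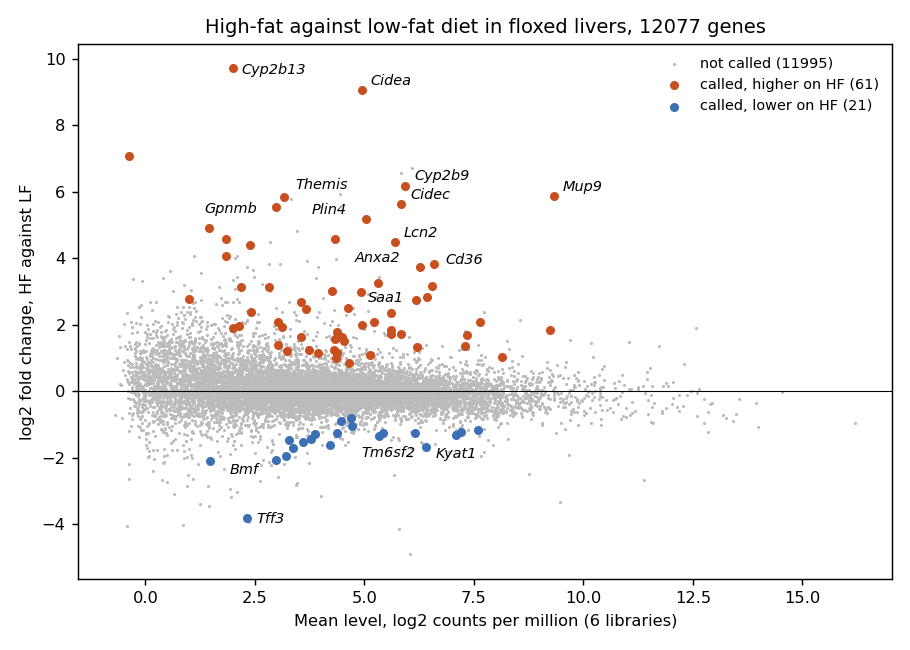
Log2 fold change between HF and LF floxed libraries (vertical axis) against mean level in log2 CPM (counts scaled to library size) (horizontal axis) for the 12077 tested genes, with the 61 genes called higher in orange and the 21 called lower in blue. The genes called higher reach log2 changes above 9 (Cidea, and Cyp2b13, whose fitted value is no bound since it had 0 LF counts), and the lowest called gene is Tff3 at -3.80.

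Lipid droplet genes held some of the largest changes. Cidea, a CIDE protein that fuses lipid droplets and is best known from brown fat, was listed at 0, 0.11 and 0.11 FPKM on LF against at 68.2, 60.6 and 27.4 FPKM on HF. It was 531-fold higher (log2 9.05, SE 0.53, edgeR adjusted p = 9.17e-04), a ratio that rests on 4 counts over the 3 LF libraries against 2831 on HF. Its relative Cidec, which enlarges droplets in fat cells, read 0.53, 1.39 and 0.89 FPKM on LF against 90.8, 88.3 and 9.68 FPKM on HF. HF replicate 3 thus stood well below the other 2 HF libraries for Cidec, yet above all LF libraries (log2 5.63, SE 0.82, edgeR adjusted p = 0.0361).

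The other droplet genes that rose were Plin4, a perilipin of droplet coats, and Fitm1, which helps to bud fat from the endoplasmic reticulum. Plin4 went from 0.31, 0.18 and 0.31 FPKM to 15.9, 16.3 and 2.05 FPKM (log2 5.17, SE 0.73, edgeR adjusted p = 0.0342). Fitm1 went from 15.2, 23.4 and 19.4 FPKM to 80.1, 72.9 and 92.1 FPKM (log2 1.84, SE 0.22, edgeR adjusted p = 0.0209), and here HF replicate 3 was the highest. Of 26 tested droplet genes 18 were higher and 8 lower on HF, and 4 rose. The list's median was 0.34 on the log2 scale. In 9 of the 26 the HF libraries lay wholly above LF and in 1 wholly below (11.6% and 12.5% over all genes). The main liver perilipin, Plin2, stood at 308, 340 and 311 FPKM on LF against 710, 684 and 354 FPKM on HF and did not pass (edgeR adjusted p = 0.239).

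Several of these genes are also active in fat cells, so adipocyte markers were read beside them. Adipoq, Retn, Plin1 and Aoc3, which define fat cells, had 0 counts over the 3 LF libraries and 2, 0, 2 and 3 counts over the 3 HF libraries, too few to test. Cfd, the complement factor adipsin made mainly by fat cells, rose from 0, 0.35 and 0.08 FPKM to 4.01, 4.18 and 7.07 FPKM (log2 4.91, SE 0.77, edgeR adjusted p = 0.0441). Of the 6 tested adipocyte markers 3 were higher and 3 lower on HF.

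In fatty acid uptake, Cd36, a fatty acid translocase and TSP1 receptor, rose 14.1-fold (log2 3.82, SE 0.38, edgeR adjusted p = 0.0156). Its levels were 1.85, 3.91 and 3.06 FPKM on LF against 59.1, 68.3 and 24.8 FPKM on HF. It was the 1 gene that rose among 18 uptake and binding genes, of which 9 were higher and 9 lower, with a median of -0.04. Vldlr, a lipoprotein receptor, read 0.17, 0.21 and 0.12 FPKM on LF against 1.19, 1.02 and 0.46 FPKM on HF without passing (log2 2.13, SE 0.37, edgeR adjusted p = 0.0551). Fabp5, a fatty acid binding protein, had its largest gap between LF libraries, at 4.75, 182 and 140 FPKM, and stood at 4.65, 5.02 and 3.31 FPKM on HF. It is named here after its values were seen.

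**Figure D2:**
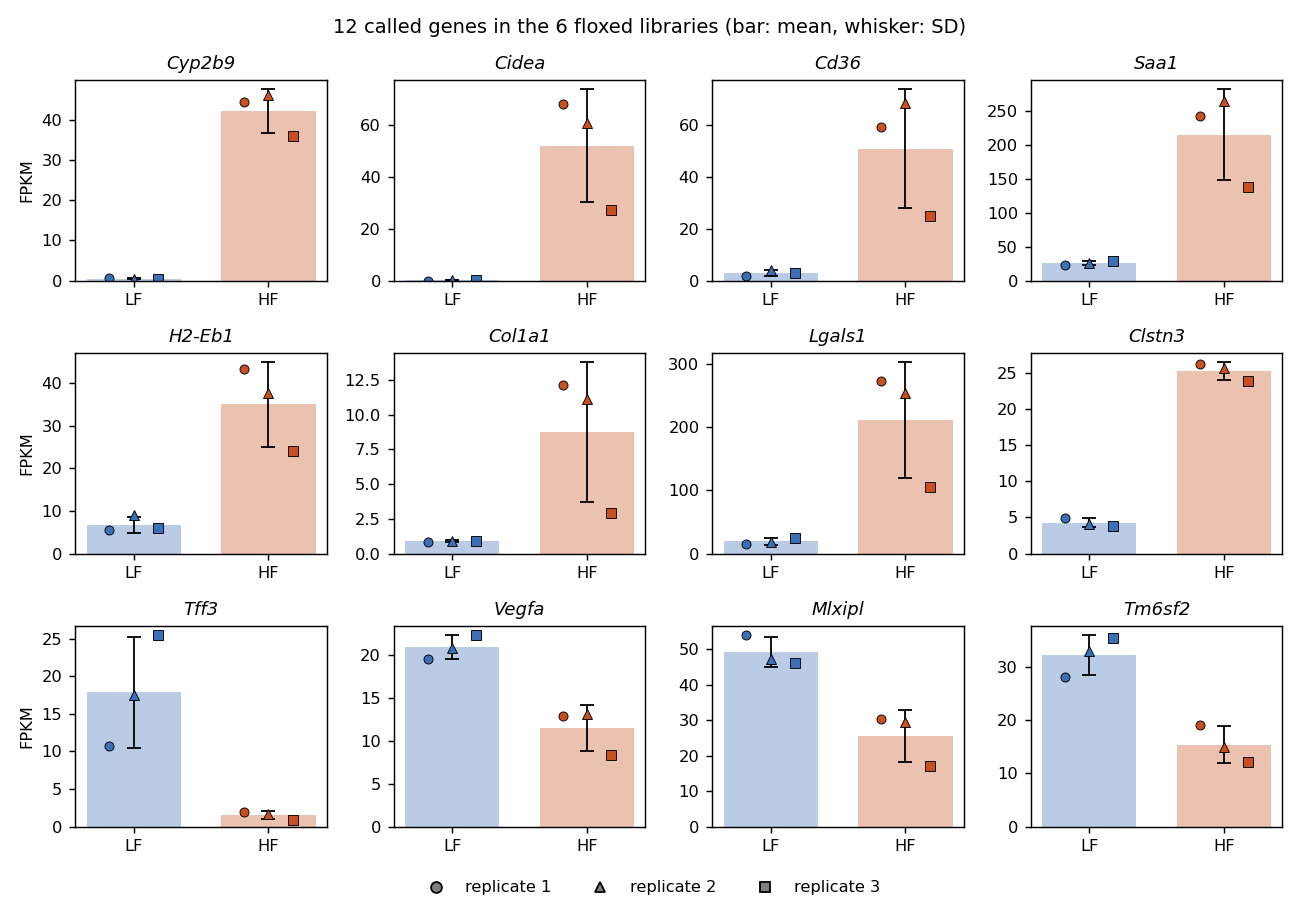
FPKM of 12 called genes in the 3 LF (blue) and 3 HF (orange) floxed libraries, with bars at the mean, whiskers for the SD and a marker per replicate. The HF markers lie above all LF markers in the first 8 panels and below them in the last 4, and HF replicate 3 (square) is the lowest HF library in each of the first 8.

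Clstn3, which encodes calsyntenin 3, was the gene with the fourth smallest p. It read 4.99, 4.06 and 3.75 FPKM on LF against 26.2, 25.8 and 23.9 FPKM on HF, so the HF libraries lay close together (log2 2.01, SE 0.16, edgeR adjusted p = 0.00537). A short transcript of the same locus, Clstn3b, is known to encode a droplet protein that works with CIDE proteins. The deposited files give each gene a length averaged over its transcripts by abundance, and for Clstn3 this length was 2233, 2369 and 2202 bases on LF and 1895, 1874 and 1798 bases on HF. The length was thus shorter in all 3 HF libraries, as it was without overlap in 4.57% of the 6893 genes whose length varied. Values per transcript were not used here. Of the genes called, Cidec, Cyp3a59, Vegfa and, by a few bases, Abcc3 also had a shorter length in all 3 HF libraries.

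Genes that burn fat moved little. Of 28 genes of mitochondrial and peroxisomal fatty acid oxidation 21 were higher on HF and 12 lay above LF without overlap (11.6% over all genes). The median log2 change was 0.22, however, and none passed edgeR's correction. At an unadjusted p under 0.05, 8 were higher and 1 lower (9.91% and 9.29% over all genes). Acadm, the medium-chain acyl-CoA dehydrogenase, stood at 121, 109 and 113 FPKM on LF against at 196, 221 and 185 FPKM on HF (edgeR adjusted p = 0.139). Among 18 genes that respond to PPAR nuclear receptors 12 were higher and 2 rose. Aldh3a2, a fatty aldehyde dehydrogenase, rose 3.59-fold (SE 0.28 on the log2 scale, edgeR adjusted p = 0.0403), from 72.2, 69.0 and 54.0 FPKM to 344, 355 and 160 FPKM. Vnn1, the pantetheinase vanin 1, rose 7.21-fold (SE 0.47, edgeR adjusted p = 0.0485), from 2.85, 12.2 and 5.86 FPKM to 70.0, 71.8 and 40.4 FPKM. Pparg itself, the receptor that drives fat storage, read 1.72, 3.99 and 4.82 FPKM on LF against 17.7, 16.1 and 7.98 FPKM on HF and missed the threshold (edgeR adjusted p = 0.0768).

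Most genes that make fat and cholesterol were lower on HF, and 1 passed the test. Of 21 fatty acid synthesis genes 16 were lower on HF and 1 fell, Mlxipl, which encodes the carbohydrate-responsive factor ChREBP. Mlxipl went from 53.9, 47.4 and 46.2 FPKM to 30.3, 29.3 and 17.1 FPKM (log2 -1.24, SE 0.19, edgeR adjusted p = 0.043). Scd1, the stearoyl-CoA desaturase, was at 3422, 4521 and 2678 FPKM on LF against at 2677, 3082 and 521 FPKM on HF and did not pass (edgeR adjusted p = 0.313). HF replicate 3 held the lowest value of the list as a whole, with a median log2 deviation from LF of -0.98 against -0.21 and -0.29 in HF replicates 1 and 2. Of 29 cholesterol genes 24 were lower with a median of -0.49 and none passed edgeR's correction. At an unadjusted p under 0.05, 7 were lower (9.29% over all genes). Without LF replicate 2 the median was -0.17 and without LF replicate 1 it was -0.74. The list stood at -0.31, -0.32 and -0.35 in the HF libraries, within the LF range of -0.55 to 0.53. Tm7sf2, a sterol reductase, was 37.0, 86.2 and 66.2 FPKM on LF against 26.3, 27.1 and 25.4 FPKM on HF (edgeR adjusted p = 0.0586).

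Tm6sf2, which helps to load lipid onto very low density lipoproteins and carries a known risk variant for fatty liver in people, also fell. Its values were 28.2, 33.1 and 35.5 FPKM on LF against 19.2, 15.04 and 12.1 FPKM on HF (log2 -1.33, SE 0.17, edgeR adjusted p = 0.0235). The groups did not overlap, and the lowest LF value exceeded the highest HF value by more than the range within HF.

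The smallest p of all belonged to Cyp2b9, a cytochrome P450 that is higher in female than in male mouse liver. It read 0.71, 0.43 and 0.35 FPKM on LF against 44.3, 46.2 and 36.0 FPKM on HF, 72.7-fold apart (log2 6.18, SE 0.23, edgeR adjusted p = 4.22e-05). Its neighbour Cyp2b13 had 0 counts over the 3 LF libraries and 3.77, 5.08 and 3.34 FPKM on HF. That is at least 95.7-fold higher against a floor of 3 counts over the LF group (edgeR adjusted p = 0.00895). The 250 bases before the start of each gene (RefSeq, build GRCm38.p6, plus strand) are shown because they differ at few places: 248 of 250 bases are the same. Reads of 2 such similar genes may be shared out by the counting, so the split between them is uncertain. Capitals mark a match to TTNNGCAA on either strand, a letter pattern bound by C/EBP factors, which 9.56% of all 32851 promoters in the table hold in their 250 bases.
Cyp2b9, chr7:26173159-26173408: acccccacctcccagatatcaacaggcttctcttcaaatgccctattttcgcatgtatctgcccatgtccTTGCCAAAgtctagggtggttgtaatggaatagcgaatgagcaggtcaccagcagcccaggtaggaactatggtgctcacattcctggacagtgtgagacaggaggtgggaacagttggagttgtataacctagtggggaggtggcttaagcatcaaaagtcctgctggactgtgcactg
Cyp2b13, chr7:26061245-26061494: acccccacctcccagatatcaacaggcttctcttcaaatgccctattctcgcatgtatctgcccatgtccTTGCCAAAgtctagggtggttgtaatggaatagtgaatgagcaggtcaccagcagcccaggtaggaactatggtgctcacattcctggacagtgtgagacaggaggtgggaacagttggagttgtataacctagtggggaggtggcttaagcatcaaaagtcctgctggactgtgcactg

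The related Cyp2b10, the usual readout of the receptor CAR, read 0.20, 0.10 and 0.03 FPKM on LF against 0.53, 0.57 and 0.80 FPKM on HF. The groups did not overlap, and the difference did not pass (4.67-fold higher, log2 2.22, SE 0.64, edgeR adjusted p = 0.137). Of 34 tested genes of drug and xenobiotic metabolism 4 rose, Cyp2b9, Cyp2b13, Cyp2a22 and Cyp3a59, and 1 fell, Cyp2c40. Cyp2c40 went from 4.69, 8.08 and 8.18 FPKM to 3.29, 2.57 and 1.83 FPKM (log2 -1.71, SE 0.27, edgeR adjusted p = 0.048), against the direction of most other female-biased genes. This list differed between HF libraries. Its median deviation from LF was -0.33 and -0.43 in HF replicates 1 and 2 and 0.45 in replicate 3, so its overall median of -0.07 describes none of them.

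Of 21 female-biased genes found in the files only 11 could be tested, because the other 10 had at most 15 counts over the 3 libraries of either diet. Among the 11, 9 were higher on HF, with 2 that rose and 1 that fell. Genes known to be higher in males went the other way in 22 of 24 cases, with a median log2 change of -0.83, but none passed edgeR's correction. At an unadjusted p under 0.05, 5 of these were lower (9.29% over all genes). Here the HF libraries split. The male-biased list stood at -1.79 and -1.68 in HF replicates 1 and 2 and at -0.03 in HF replicate 3, which is within the LF range of -0.28 to 0.46. Hsd3b5, a steroid dehydrogenase of male liver, shows the split, at 84.2, 124 and 78.6 FPKM on LF against 0.31, 0.44 and 85.7 FPKM on HF. Slco1a1, an organic anion transporter, read 60.5, 80.3 and 50.8 FPKM on LF against 3.09, 3.17 and 46.9 FPKM on HF. Both are named after their values were seen. Ihh, a hedgehog ligand, was low in all 3 HF libraries, at 0.58, 0.70 and 0.75 FPKM against 1.74, 1.45 and 2.72 FPKM (edgeR adjusted p = 0.0559).

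The Y-linked genes Ddx3y, Eif2s3y, Kdm5d and Uty were present in all 6 libraries. Eif2s3y, for example, ranged from 11.2 to 17.1 FPKM on LF against from 14.2 to 22.3 FPKM on HF, and none of the 4 passed edgeR's correction or an unadjusted p of 0.05. Mup9, a major urinary protein gene, rose from 38.8, 7.48 and 13.7 FPKM to 1901, 2181 and 375 FPKM (log2 5.87, SE 0.86, edgeR adjusted p = 0.0361). The major urinary proteins are carriers of pheromones made in liver. Their genes are close copies of each other, so counts of a single member are uncertain. Of 21 tested members of that family 12 were higher and 9 lower on HF, and Mup9 was the 1 that passed.

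Acute phase proteins, which liver secretes during inflammation, were raised for a few members only. Saa1, serum amyloid A1, had the third smallest p and read 23.1, 25.3 and 29.4 FPKM on LF against 242, 264 and 138 FPKM on HF, 6.74-fold apart (log2 2.75, SE 0.20, edgeR adjusted p = 0.00348). Saa2 stood at 6.69, 11.95 and 12.8 FPKM against 147, 155 and 67.2 FPKM (log2 3.25, SE 0.33, edgeR adjusted p = 0.0156). Lcn2, lipocalin 2, which binds iron carriers of bacteria, rose 22.4-fold (SE 0.57 on the log2 scale, edgeR adjusted p = 0.0235), from 1.63, 6.89 and 4.37 FPKM to 159, 152 and 45.8 FPKM. Orm3, an orosomucoid gene close in sequence to Orm1 and Orm2, rose from 0, 0.58 and 0.25 FPKM to 7.65, 5.99 and 10.2 FPKM (edgeR adjusted p = 0.041). In all, 4 of 23 tested acute phase genes rose and the median of the list was 0.10, which turned to -0.07 without HF replicate 3. Fibrinogen leaned the other way, with Fgb at 1614, 2238 and 2253 FPKM on LF against 1360, 1434 and 1802 FPKM on HF (edgeR adjusted p = 0.238). Neutrophil markers, which would accompany granulocytes, were too low to test in 12 of 15 cases, and the 15 summed to 2.87 to 12.6 FPKM on LF against 4.80 to 8.49 FPKM on HF.

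The C/EBP letter pattern TTNNGCAA, searched on both strands, was found before the start of 11 of the 19 acute phase genes with a RefSeq promoter. Counted by gene in the same way, 9.58% of tested genes with a promoter held it, beside the 9.56% of single promoters given above. The match in Saa1 and Saa2 lies at nearly the same place, 182 and 183 bases before the start. A match is a description of letters and does not show that a factor binds. The 250 bases (GRCm38.p6, Saa1 on the minus and Saa2 on the plus strand) show how alike the promoters of these 2 genes are, whose transcripts are also near-identical, so that reads may be shared between them.
Saa1, chr7:46742981-46743230: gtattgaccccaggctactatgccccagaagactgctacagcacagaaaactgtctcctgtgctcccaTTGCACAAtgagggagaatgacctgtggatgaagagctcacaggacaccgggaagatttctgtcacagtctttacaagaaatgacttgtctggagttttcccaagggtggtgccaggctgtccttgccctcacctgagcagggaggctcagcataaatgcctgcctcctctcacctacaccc
Saa2, chr7:46751583-46751832: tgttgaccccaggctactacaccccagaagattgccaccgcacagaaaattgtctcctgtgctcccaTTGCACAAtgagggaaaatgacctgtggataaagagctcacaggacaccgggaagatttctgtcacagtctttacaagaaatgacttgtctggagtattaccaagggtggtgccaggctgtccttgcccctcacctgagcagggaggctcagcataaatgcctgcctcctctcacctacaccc

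MHC class II genes, which present antigen to helper T cells, were higher on HF in 8 of 8 tested cases, and 7 lay above LF without overlap (11.6% over all genes). Of these 3 rose. H2-Eb1, a beta chain, went from 5.44, 8.95 and 6.01 FPKM to 43.3, 37.6 and 24.04 FPKM (log2 2.09, SE 0.24, edgeR adjusted p = 0.0182). H2-Aa, an alpha chain, went from 11.9, 26.7 and 21.3 FPKM to 93.1, 92.3 and 55.6 FPKM (log2 1.73, SE 0.28, edgeR adjusted p = 0.0485). Cd74, the invariant chain that escorts both, went from 33.6, 55.8 and 56.0 FPKM to 232, 204 and 135 FPKM (log2 1.71, SE 0.24, edgeR adjusted p = 0.035). Ciita, the master regulator of the class, read 0.04, 0.08 and 0.13 FPKM on LF against 0.62, 0.59 and 0.29 FPKM on HF. The list stood above LF in each HF library, at median deviations of 1.94, 1.68 and 1.35, and the median log2 change was 1.67. In bulk tissue, more cells that carry these genes and more RNA per cell cannot be told apart, which holds for every cell type marker below.

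The sequence CCAAT, the core of the Y box of class II promoters, was searched on either strand in the 250 bases before the start. It was found in 5 of 5 class II genes with a RefSeq promoter. Counted by gene in the same way, 40.68% of tested genes with a promoter held it, and 33.85% of all single promoters did. Those of 2 genes that rose are shown (GRCm38.p6, H2-Eb1 on the plus and H2-Aa on the minus strand), with each match in capitals.
H2-Eb1, chr17:34305617-34305866: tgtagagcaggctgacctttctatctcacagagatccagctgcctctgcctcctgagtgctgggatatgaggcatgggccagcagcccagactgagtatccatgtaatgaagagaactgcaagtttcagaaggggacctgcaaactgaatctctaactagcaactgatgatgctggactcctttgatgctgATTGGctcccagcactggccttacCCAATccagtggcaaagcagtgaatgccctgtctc
H2-Aa, chr17:34287824-34288073: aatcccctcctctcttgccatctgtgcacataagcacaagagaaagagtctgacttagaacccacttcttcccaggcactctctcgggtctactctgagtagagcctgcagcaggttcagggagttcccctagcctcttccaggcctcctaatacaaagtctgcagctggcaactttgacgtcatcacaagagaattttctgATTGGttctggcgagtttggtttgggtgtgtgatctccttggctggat

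Interferon-induced genes were higher in 40 of 43 cases (median log2 change 1.15), and 21 lay above LF without overlap, against the 11.6% of all genes. Of these 3 rose, and 2 are described. Tgtp1, a GTPase that attacks vacuoles of parasites, went from 0.76, 1.04 and 0.81 FPKM to 9.31, 8.47 and 3.02 FPKM (log2 2.69, SE 0.37, edgeR adjusted p = 0.0302), although it has a close copy, Tgtp2. Ifi47, another such GTPase, went from 5.17, 7.17 and 5.33 FPKM to 17.5, 18.3 and 11.4 FPKM (log2 1.15, SE 0.19, edgeR adjusted p = 0.0485). HF replicate 3 was the lowest HF library for both, and for the list it stood at 0.39 against 1.38 and 1.25. The chemokine Cxcl9, which interferon gamma induces to draw T cells, rose 3.44-fold (SE 0.23 on the log2 scale, edgeR adjusted p = 0.0235), from 2.25, 2.32 and 2.91 FPKM to 12.3, 12.8 and 6.44 FPKM. It was the 1 that passed of 22 tested chemokines and receptors, of which 17 were higher. Ccl27a ran against that list (log2 -0.94, edgeR adjusted p = 0.092).

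The interferon response element, searched on both strands as GAAA, any 2 bases and GAAA again, occurred before 18 of the 30 interferon-induced genes with a RefSeq promoter (60.0%). Counted by gene in the same way, 3.38% of tested genes with a promoter held it, and 2.98% of all single promoters did. Among the called genes that rose and have a promoter in the table it was found before 1 of 49, Tgtp1 (GRCm38.p6, minus strand), 77 bases before the start. Capitals mark the match.
Tgtp1, chr11:48992247-48992496: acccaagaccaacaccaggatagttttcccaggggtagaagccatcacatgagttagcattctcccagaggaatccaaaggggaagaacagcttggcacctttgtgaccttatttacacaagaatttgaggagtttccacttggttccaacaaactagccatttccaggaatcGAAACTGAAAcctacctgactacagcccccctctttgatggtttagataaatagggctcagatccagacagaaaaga

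**Figure D3:**
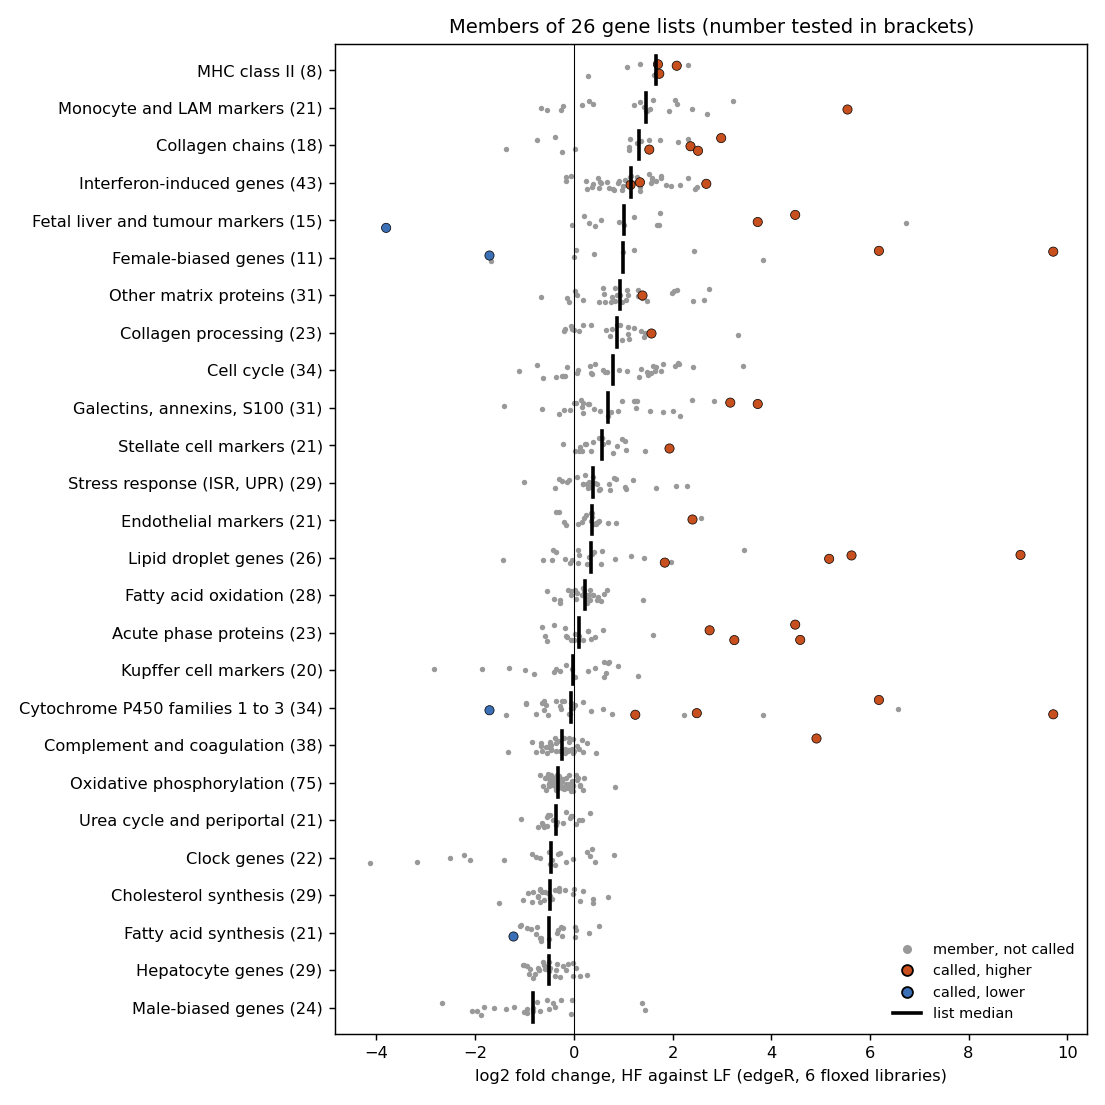
Log2 fold change between HF and LF floxed libraries for each tested member of 26 gene lists, ordered by the list median (black bar), with called members in orange (higher) or blue (lower). MHC class II genes have the highest median (1.67) and male-biased genes the lowest (-0.83), and in most lists few members passed.

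Most collagen and matrix genes were higher on HF, though few passed the test. Of 18 tested collagen chains 14 were higher on HF, and the list's median was 1.33 on the log2 scale. Without overlap, 13 lay above LF and 2 below (11.6% and 12.5% over all genes). The FPKM of the whole list summed to 157 to 192 on LF and 173 to 248 on HF, so these sums overlapped. Of the tested chains 4 rose. Col1a1, the alpha 1 chain of scar collagen type I, went from 0.81, 0.93 and 0.92 FPKM to 12.1, 11.2 and 2.95 FPKM (log2 2.99, SE 0.44, edgeR adjusted p = 0.0361). Col4a2, a basement membrane chain, went from 1.17, 1.43 and 1.70 FPKM to 6.45, 5.51 and 3.15 FPKM (log2 1.53, SE 0.24, edgeR adjusted p = 0.041). Col1a2 and Col3a1 were the other 2, at log2 changes of 2.52 and 2.36. The LF libraries were close together in all 4, and HF replicate 3 lay between them and the other 2 HF libraries. Against the list ran Col27a1, a chain of cartilage, at 4.62, 2.01 and 2.66 FPKM on LF against 1.79, 2.04 and 0.65 FPKM on HF (edgeR adjusted p = 0.148).

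Proteins that fold or cross-link collagen were higher in 19 of 23 cases, with a median of 0.88. Serpinh1, the collagen chaperone HSP47, rose from 3.67, 2.82 and 4.21 FPKM to 14.8, 13.7 and 9.92 FPKM (log2 1.57, SE 0.20, edgeR adjusted p = 0.0235). Of 31 tested other matrix proteins 28 were higher with a median of 0.94, although the FPKM of the whole list summed to 1854 to 2104 on LF and 1644 to 1778 on HF. Fbln5, an elastic fibre protein, rose from 0.62, 0.50 and 0.64 FPKM to 2.11, 1.69 and 1.71 FPKM (edgeR adjusted p = 0.041). Among 19 matrix proteases and inhibitors 16 were higher, yet none passed edgeR's correction. At an unadjusted p under 0.05, 8 were higher (9.91% over all genes). Plat, the tissue plasminogen activator, came nearest, at 0.07, 0.07 and 0.02 FPKM on LF against 1.23, 1.15 and 0.34 FPKM on HF (edgeR adjusted p = 0.0567).

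Markers of stellate cells, the main source of liver collagen, were higher in 20 of 21 cases, with a median of 0.57, and 1 rose. That was Tpm2, a tropomyosin of contractile cells, from 1.29, 0.86 and 1.76 FPKM to 5.82, 5.94 and 6.37 FPKM (log2 1.92, SE 0.29, edgeR adjusted p = 0.0403). Acta2, the smooth muscle actin of activated stellate cells, read 0.68, 0.30 and 0.62 FPKM on LF against 2.05, 1.45 and 1.61 FPKM on HF and did not pass (edgeR adjusted p = 0.121). Of 30 TGF-beta ligands, receptors and targets 20 were higher with a median of 0.33, and none passed edgeR's correction. At an unadjusted p under 0.05, 9 were higher and 3 lower (9.91% and 9.29% over all genes), so the lower count is near the share over all genes. Ctgf, a target, stood at 0.60, 0.95 and 1.39 FPKM on LF against 4.22, 5.46 and 2.26 FPKM on HF (edgeR adjusted p = 0.0754). Fst, a binding protein that blocks activins, stood at 1.70, 2.72 and 3.57 FPKM on LF against 1.35, 0.71 and 0.62 FPKM on HF (edgeR adjusted p = 0.0708).

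Thbs1 was low throughout, at 0.11, 0.06 and 0.07 FPKM on LF against 0.75, 0.75 and 0.31 FPKM on HF. The groups did not overlap and the log2 change was 2.65 (SE 0.47), which missed the threshold (edgeR adjusted p = 0.0559). A two-sided exact permutation test gave p = 0.1, the smallest that 3 against 3 libraries allow. Among 16 tested thrombospondins and TSP1 receptors 13 were higher, and Cd36 was the 1 that rose. Cd47, the other main receptor, read 10.7, 11.3 and 13.3 FPKM on LF against 11.02, 14.7 and 15.01 FPKM on HF (log2 -0.04, SE 0.17).

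Macrophage genes split by kind. Of 21 markers of monocytes and of the lipid-associated macrophages of fatty tissue 17 were higher and the median log2 change was 1.46. Gpnmb, a glycoprotein of such macrophages, rose from 0.07, 0.11 and 0.02 FPKM to 5.70, 4.39 and 1.47 FPKM (log2 5.54, SE 0.63, edgeR adjusted p = 0.019). Mmp12, the macrophage elastase, read 0.30, 0.23 and 0.25 FPKM on LF against 4.52, 3.77 and 0.68 FPKM on HF (edgeR adjusted p = 0.064). Trem2, a lipid receptor, read 0.25, 0.78 and 2.07 FPKM on LF against 6.17, 7.56 and 2.38 FPKM on HF, so LF replicate 3 came near HF replicate 3. Those 2 libraries also overlapped for the list as a whole, at 0.74 and 0.53.

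The 20 markers of resident Kupffer cells showed no common direction, with 10 higher, 10 lower and a median of -0.01 whose sign changed under 6 of the other settings tried. Id1 and Id3, regulators that keep Kupffer cell identity but act in many cells, were lower on HF by log2 values of -1.86 and -0.98 without passing (edgeR adjusted p = 0.0596 and 0.129). Id1 stood at 20.3, 9.99 and 23.1 FPKM on LF against 7.16, 6.94 and 3.80 FPKM on HF. Adgre1, a surface marker of macrophages, stood at 1.22, 1.30 and 2.46 FPKM on LF against 6.06, 6.60 and 2.28 FPKM on HF (edgeR adjusted p = 0.148). None of the 20 passed edgeR's correction, with 1 higher and 6 lower at an unadjusted p under 0.05 (9.91% and 9.29% over all genes). Clec4f, found only in Kupffer cells, was 13.5, 13.9 and 25.1 FPKM on LF against 22.03, 21.2 and 14.1 FPKM on HF.

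Of 21 endothelial markers 17 were higher, with a median of 0.37 that was 0.07 without LF replicate 2. The list overlapped between diets, at 0.22, -0.44 and 0.27 on LF and 0.52, 0.42 and 0.21 on HF (deviation from the LF mean, as above). Lyve1, a hyaluronan receptor of sinusoids and lymph vessels, rose from 0.34, 0.71 and 0.43 FPKM to 3.74, 4.19 and 1.64 FPKM (log2 2.39, SE 0.39, edgeR adjusted p = 0.0485). Bile duct markers were higher in 9 of 12 tested cases with a median of 0.43, and Krt19 read 0.32, 0.42 and 0.35 FPKM on LF against 1.87, 1.48 and 0.63 FPKM on HF (edgeR adjusted p = 0.137). Mesothelial markers were higher in 5 of 5 with a median of 1.28, and the 7 found summed to 72.2 to 89.5 FPKM on LF against 142 to 306 FPKM on HF, nearly all of it Krt8, a keratin that hepatocytes also make. Of 10 tested lymphocyte markers 6 were higher, with Il2rb at 0.14, 0.27 and 0.21 FPKM on LF against 1.14, 0.69 and 0.32 FPKM on HF. Globin and red cell genes were higher in 5 of 6, with Hba-a2 at 195, 153 and 156 FPKM on LF against 389, 343 and 247 FPKM on HF. None of the last 4 lists had a member that passed edgeR's correction. At an unadjusted p under 0.05 they had 3, 3, 3 and 5 members higher in the order given and 0 lower. Over all genes the shares were 9.91% and 9.29%. The part of blood or capsule tissue in the changes above was not tested.

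**Figure D4:**
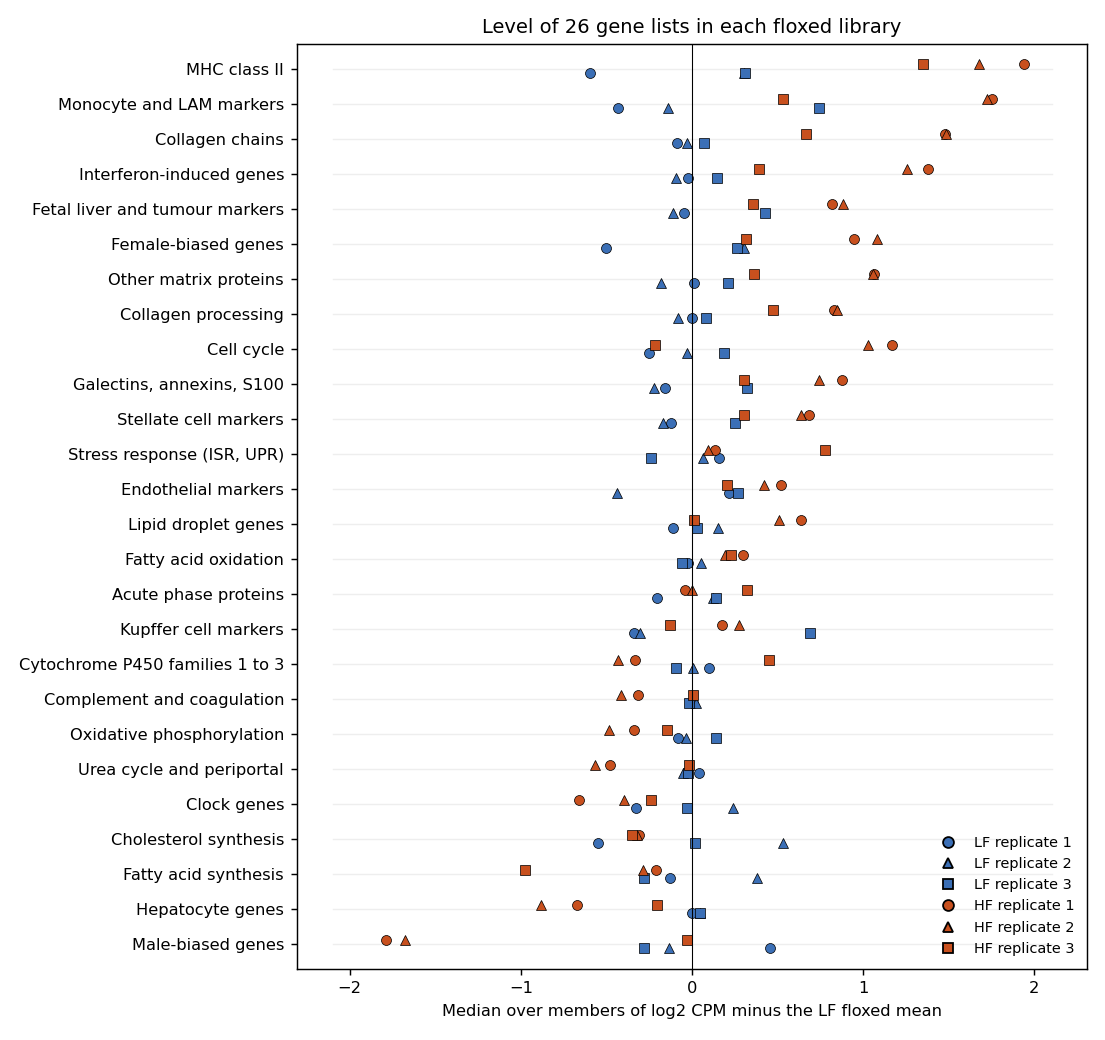
Level of 26 gene lists in each floxed library, as the median over members of log2 CPM (counts scaled to library size) minus the mean of the 3 LF libraries, in blue for LF and orange for HF with a marker per replicate. HF replicate 3 (square) lies nearer to LF than HF replicates 1 and 2 (circle, triangle) for collagens (0.67), interferon-induced genes (0.39) and male-biased genes (-0.03).

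Genes of galectins, annexins and S100 proteins, which bind sugars, membranes and calcium, were higher in 26 of 31 cases with a median of 0.69. Lgals1, galectin 1, rose 9.01-fold (SE 0.33 on the log2 scale, edgeR adjusted p = 0.0164), from 14.6, 18.2 and 24.3 FPKM to 273, 253 and 106 FPKM. Anxa2, a membrane-binding annexin, rose 13.2-fold (SE 0.51, edgeR adjusted p = 0.0302), from 5.58, 4.98 and 8.42 FPKM to 146, 136 and 31.4 FPKM. Both are made by many cell types, hepatocytes under stress among them. Markers of fetal liver and liver tumours were higher in 13 of 15 tested cases. Lcn2 and Anxa2 belong to that list as well and were the 2 that rose, while its member Tff3 fell. Ly6d, a surface protein of that list named after its values were seen, was 316 and 307 FPKM in HF replicates 1 and 2, 4.19 FPKM in HF replicate 3 and at most 1.92 FPKM on LF.

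Tff3, a trefoil peptide of mucous cells that mouse liver also makes, had the largest fall among the called genes. It went from 10.7, 17.5 and 25.5 FPKM to 1.99, 1.69 and 0.91 FPKM (log2 -3.80, SE 0.41, edgeR adjusted p = 0.0164). Bmf, a cell death promoter of the BCL2 family, fell 4.14-fold from 1.89, 2.71 and 1.93 FPKM to 0.63, 0.65 and 0.59 FPKM (SE 0.22 on the log2 scale, edgeR adjusted p = 0.0164). Vegfa, the growth factor of blood vessels, fell 2.39-fold from 19.6, 20.9 and 22.4 FPKM to 12.96, 13.2 and 8.41 FPKM (SE 0.15, edgeR adjusted p = 0.0235). Kyat1, which turns kynurenine into kynurenic acid, fell 3.21-fold from 55.7, 42.9 and 60.6 FPKM to 19.9, 17.1 and 21.5 FPKM (SE 0.22, edgeR adjusted p = 0.0235). In each of the 4 the HF libraries were closer to each other than to any LF library.

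Other genes among the 10 of smallest p that fell were Adamts7, a matrix protease, Fam46a, a poly(A) polymerase, and the nuclear proteins Mn1 and Zfp467, at log2 changes of -1.93, -1.46, -1.25 and -1.04. Morf4l1b, a copy of the chromatin gene Morf4l1, went from 15.7, 10.9 and 12.3 FPKM to 4.52, 5.38 and 5.37 FPKM (log2 -1.60, SE 0.21, edgeR adjusted p = 0.0239), and reads of the 2 copies may not be separated by the counting. Tmem25, a membrane protein, fell by 1.44 on the log2 scale. On the rising side Gnai1, an inhibitory G protein subunit, went from 0.26, 0.14 and 0.25 FPKM to 2.58, 2.70 and 1.68 FPKM (log2 3.14, SE 0.33, edgeR adjusted p = 0.0164). Themis, a T cell signalling protein, went from 0, 0.07 and 0.06 FPKM to 4.31, 4.46 and 1.61 FPKM (log2 5.86, SE 0.63, edgeR adjusted p = 0.0164). Cd3g, which marks T cells, was 0.38, 0.38 and 0.63 FPKM on LF against 0.95, 0.89 and 0.25 FPKM on HF. Other T cell markers were too low to test. Cd3d and Cd8a had 6 and 11 counts over the LF libraries against 21 and 62 over the HF libraries, and their FPKM did not overlap. Cd3e and Cd8b1 had 11 and 11 counts on LF against 20 and 29.15 on HF, and their FPKM overlapped.

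Hepatocyte genes were lower as a group. Of 29 secreted proteins, enzymes and transcription factors 26 were lower (median log2 change -0.51), and 11 lay below LF without overlap against 12.5% of all genes. None passed edgeR's correction, with 11 lower at an unadjusted p under 0.05 (9.29% over all genes). Alb itself stood at 31441, 40063 and 43610 FPKM on LF against 24826, 24583 and 21912 FPKM on HF (log2 -0.95, SE 0.24, edgeR adjusted p = 0.11). Foxa3, a liver transcription factor, stood at 18.6, 18.9 and 22.7 FPKM on LF against 13.8, 13.98 and 12.8 FPKM on HF (edgeR adjusted p = 0.0551). In HF replicate 3 the list lay at -0.20, against -0.67 and -0.89 in the other 2. Complement and coagulation genes were lower in 30 of 38 cases with a median of -0.24, and urea cycle and periportal genes in 17 of 21 with a median of -0.36. In both of these lists HF replicate 3 was at the LF level, at 0.00 and -0.02. None of their members fell in edgeR's test, with 10 and 3 lower at an unadjusted p under 0.05 (9.29% over all genes). Cfd, described above, was the 1 complement gene that rose.

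Oxidative phosphorylation subunits were lower in 67 of 75 cases, and 33 lay below LF without overlap (12.5% over all genes). Their median was small, -0.33, and none passed edgeR's correction. At an unadjusted p under 0.05, 23 were lower and 1 higher (9.29% and 9.91% over all genes). Uqcrh, a subunit of complex III, read 218, 205 and 246 FPKM on LF against 172, 186 and 162 FPKM on HF (edgeR adjusted p = 0.0905). Ribosomal protein genes, grouped after the data were seen, were lower in 82 of 88 cases with a median of -0.56. Of the 88, 56 lay below LF without overlap (12.5% over all genes). Gene length moved with the direction of change. With all tested genes split into 5 groups by length, in the shortest, at 331 to 1640 bases, 66.8% were lower on HF and the median log2 change was -0.16, against 43.9% and 0.05 in the longest. In the libraries labelled knockout the shortest and longest had medians of 0.02 and 0.02. The part of transcript length in these falls was not tested.

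Cell cycle and DNA replication genes were higher in 26 of 34 cases with a median of 0.79, which came from HF replicates 1 and 2, at 1.17 and 1.03, while replicate 3 stood at -0.21. Mcm3, a replication helicase subunit, read 0.81, 0.75 and 0.97 FPKM on LF against 3.52, 3.27 and 1.80 FPKM on HF (edgeR adjusted p = 0.0586). Tk1 ran against the list (log2 -1.12, edgeR adjusted p = 0.0805). Genes of the unfolded protein and integrated stress responses were higher in 23 of 29 cases with a median of 0.39, and here HF replicate 3 was the highest, at 0.77 against 0.13 and 0.10. Gdf15, a stress hormone that curbs appetite, read 5.5, 2.93 and 5.48 FPKM on LF against 37.9, 33.5 and 12.7 FPKM on HF (log2 2.29, SE 0.39, edgeR adjusted p = 0.0543). Neither list had a member that passed edgeR's correction. At an unadjusted p under 0.05 they had 12 and 7 members higher and 2 and 0 lower (9.91% higher and 9.29% lower over all genes).

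Bile acid genes were lower in 14 of 21 cases, with a median of -0.26 whose sign turned on FPKM, but Abcc3, a pump that exports bile acids to blood, rose 4.28-fold (SE 0.27 on the log2 scale, edgeR adjusted p = 0.0235), from 7.61, 14.7 and 12.96 FPKM to 72.4, 67.6 and 42.8 FPKM. Of 22 tested genes of the growth hormone and IGF axis 10 were higher and 12 lower, with a median of -0.14. None passed edgeR's correction. At an unadjusted p under 0.05, 6 were higher and 2 lower (9.91% and 9.29% over all genes). Igfbp2, a binding protein of insulin-like growth factors, stood at 264, 489 and 698 FPKM on LF against 72.2, 64.8 and 164 FPKM on HF (log2 -2.48, SE 0.55, edgeR adjusted p = 0.0832). Igfbp5, another such binding protein, went the other way (log2 1.99, edgeR adjusted p = 0.0581). Genes of glucose handling had 10 higher and 16 lower, and Irs1, which passes on the insulin signal, read 2.77, 2.43 and 2.85 FPKM on LF against 1.44, 1.64 and 1.91 FPKM on HF (edgeR adjusted p = 0.0757). The antioxidant gene Nqo1, a target of NRF2, read 1.11, 2.19 and 1.96 FPKM on LF against 9.04, 9.08 and 3.85 FPKM on HF (edgeR adjusted p = 0.0663). Of the 28 tested members of its list, antioxidant and drug-conjugating genes, 18 were higher and 10 lower, with a median of 0.16. None passed edgeR's correction, and 4 lay above LF without overlap, near the share over all genes (11.6%). G6pdx ran against the list (log2 -1.11, edgeR adjusted p = 0.235).

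Clock genes were lower in 17 of 22 cases with a median of -0.47. Of these genes 3 lay below LF without overlap, which is about the share over all genes (12.5%). None passed edgeR's correction, with 7 lower and 1 higher at an unadjusted p under 0.05 (9.29% and 9.91% over all genes). The list stood at -0.33, 0.24 and -0.03 on LF and -0.66, -0.40 and -0.24 on HF, so HF replicate 3 lay within the LF range and the other 2 below it. Dbp, a clock output factor with a strong daily rhythm, was 1.98, 90.8 and 57.9 FPKM on LF against 2.44, 2.39 and 4.97 FPKM on HF. LF replicate 1 was thus at the HF level, and the groups overlapped (log2 -4.14, SE 1.11, edgeR adjusted p = 0.12). Fabp5, given above, had the same low LF library. The time of day of collection is not given in the sources used here, and its part in any change was not tested. Usp2, another output gene, was 0.99, 4.77 and 2.95 FPKM on LF against 0.71, 0.91 and 0.63 FPKM on HF (edgeR adjusted p = 0.0841).

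The same diets were set side by side in the 6 libraries labelled knockout, where Thbs1 stood at 0.08, 0.55 and 0.55 FPKM on LF against 0.16, 1.42 and 1.63 FPKM on HF, so 2 of the 3 libraries on each diet stood above all floxed libraries of that diet. There edgeR called 0 genes between diets, with 930 at an unadjusted p under 0.05. Of the 61 genes that rose in floxed livers 37 were higher on HF in these libraries (60.7%), and of the 21 that fell 9 were lower (42.9%), where 55.1% of all tested genes had the same sign in both. Of the 4 acute phase genes that rose in floxed livers, Saa1, Saa2 and Lcn2 were as far apart there, at log2 changes of 3.97, 3.98 and 4.51. None of them passed there, and Saa1 varied on HF from 21.8 to 3483 FPKM. The HF libraries labelled knockout differed among themselves by chi-squares of 212 to 500 per degree of freedom. Cyp2b9 read 8.47, 96.9 and 94.5 FPKM on LF against 45.7, 116 and 71.2 FPKM on HF. Cidea read 0.61, 47.2 and 52.4 FPKM on LF against 0, 7.89 and 2.32 FPKM on HF, so 2 LF libraries labelled knockout held as much Cidea as HF floxed livers.

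A test of the difference between the 2 diet effects (edgeR interaction over 12 libraries) called Morf4l1b and Gnai1, 0.0166% of genes. Both went opposite ways in the 2 genotypes. Gnai1 was 0.54, 1.39 and 1.06 FPKM on LF against 0.19, 0.08 and 0.04 FPKM on HF in libraries labelled knockout (interaction log2 6.26, SE 0.79, edgeR adjusted p = 0.0358). Of the 82 called genes 39 that rose and 15 that fell had an unadjusted interaction p under 0.05, against 9.52% of all genes, but these genes were chosen by the floxed side of that contrast. Apart from Morf4l1b and Gnai1, the diet effect was not shown to differ between genotypes for any called gene.

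**Figure D5:**
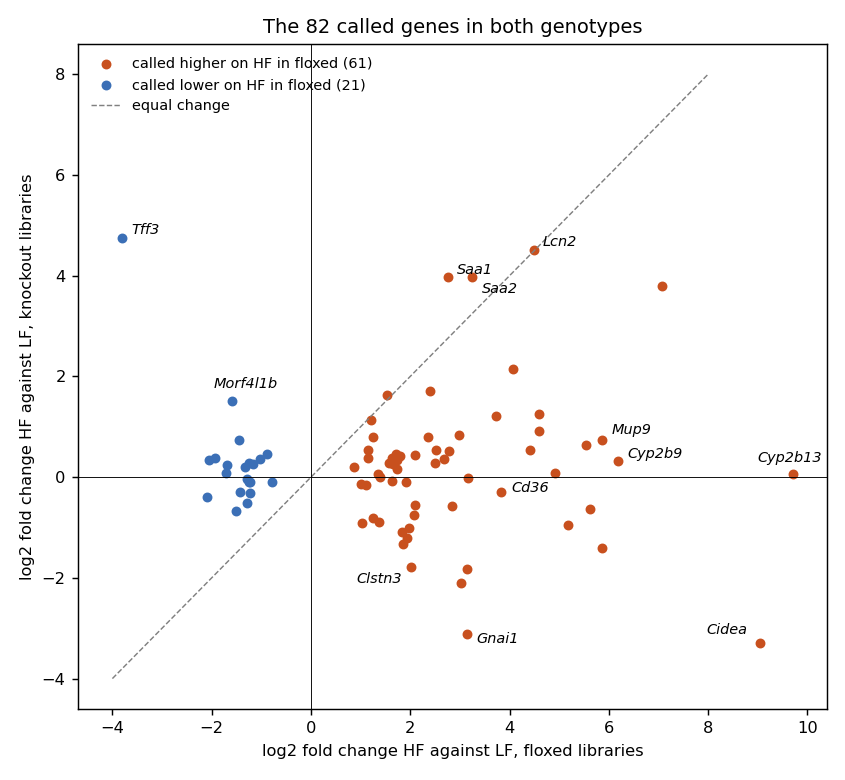
Log2 fold change between HF and LF in libraries labelled knockout (vertical axis) against that in floxed libraries (horizontal axis) for the 82 genes called in floxed libraries, with the dashed line marking equal change. Lcn2, Saa1 and Saa2 lie near or above the line, Cyp2b9 and Cyp2b13 near a change of 0 in the knockout libraries, and Cidea, Gnai1 and Clstn3 below 0.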

How the data were processed

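Per the labels' protocols, total RNA from mouse liver was extracted with an RNeasy kit and sequenced by BGI's standard protocol, and the submitters' processing notes name build mm9. The sources used here name no aligner, counter, strand setting or annotation. Per the file headers, the authors deposited an expected count per gene (an estimated count that need not be whole), an FPKM value, which is scaled to gene length and depth, and a length per gene. Of the estimated counts 87.0 to 87.9% were whole in the 6 libraries. Each file lists genes from 0.01 FPKM upward, so a gene absent from a file was taken as 0. Loci without a gene name, 13.31 to 17.33% of the counts in the 6 libraries, entered neither library sizes nor tests.

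Rounded counts went into edgeR 4.0.16 under R 4.3.3 (TMM, filterByExpr, quasi-likelihood F test, two-sided) on the 6 libraries, with Benjamini-Hochberg adjustment over all 12077 genes and a threshold of 5%. Overlap between groups was judged on CPM with TMM factors. The 6-library fit was chosen knowing from an earlier analysis of these data that it calls more genes than the 12-library fit, and the members and all 52 gene lists were chosen with earlier results of these data known. Lists are described by counts and medians. A gene that is near 0 on 1 diet enters the tests through the other diet, so counts over tested members do not cover the whole list. A rule picked genes for naming. It took Thbs1, the 10 protein-coding genes of smallest p per direction and the 5 of largest change per direction among called genes with at least 5 FPKM. Per list it took the 2 tested members of smallest p and the strongest against the list's direction at an unadjusted p under 0.05. Not all of the list members picked in this way are described. Others, such as Plin2 or Scd1, are given for their known role. The values of 1 called gene are not reported here. In simulated counts of 12077 genes with known changes, edgeR found 46.7% of 2-fold, 95.9% of 4-fold and 100% of 8-fold changes, with 11 false calls. Each simulated gene had the spread fitted for its level rather than its own, and no library stood apart as HF replicate 3 does. Only genes above a mean of 1 CPM were changed. These shares therefore do not say how many changes of such size were missed in the real libraries. Alternatives used DESeq2 1.42.0, limma 3.58.1 on log2(FPKM + 1) and log2(FPKM + 0.1) for genes with at least 1 FPKM in 3 libraries, other filters and scalings, and each library left out. Interaction alternatives were added after the data were seen. Promoters are the 250 bases before the start in RefSeq's GRCm38.p6, matched by gene ID since the files use another build.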

Additional observations from a re-analysis of the deposited data

Results flagged for a closer look

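Morf4l1b, a copy of the chromatin gene Morf4l1, differed between the genotypes in how it moved with diet. In floxed libraries it was 15.7, 10.9 and 12.3 FPKM on LF against 4.52, 5.38 and 5.37 FPKM on HF. In libraries labelled knockout it was 4.98, 4.81 and 3.90 FPKM on LF against 10.4, 11.8 and 16.4 FPKM on HF. The test of the difference gave a log2 value of -3.11 (SE 0.30, edgeR adjusted p = 0.00452), and it passed in 16 of the 16 other settings tried, at adjusted p up to 0.0388.

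Gnai1, the inhibitory G protein subunit, differed in the same test (log2 6.26, SE 0.79, edgeR adjusted p = 0.0358). It passed in 6 of the 16 other settings, among them 3 of the 12 that left out 1 library, and its adjusted p reached 0.179. The 3 were those without LF knockout replicate 1, HF knockout replicate 1 or HF knockout replicate 3.

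When loci without a gene name were kept in the fit, 6 of them passed between the diets in floxed libraries (edgeR, 5% false discovery rate). Such loci took 13.31 to 17.33% of the counts in these libraries.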

How the results depend on the processing

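The 82 called genes kept their direction under every setting tried that held them (77 of 82 were present on FPKM), but the counts of calls moved. DESeq2 called 497 higher and 327 lower (60.3% upward), voom with sample weights 639 and 569 (52.9% upward), and edgeR without a filter 156 and 63. On log2(FPKM + 1) limma called 46 and 4, and on log2(FPKM + 0.1) 45 and 3 (93.8% upward). With 12 libraries edgeR called 0 and 0 (smallest adjusted p = 0.05598), and with HF replicates 1 and 2 averaged 4 and 0. Leaving out 1 library gave 3 to 555 higher and 0 to 297 lower. The cause was not tested. DESeq2's size factors (63 and 20), a minimum of 10 counts (61 and 21) and unnamed loci kept (45 and 20) gave similar counts.

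With the replicate number as a block edgeR called 4 higher and 0 lower. The correlations of same-numbered libraries' deviations from their group means were -0.247, -0.086 and -0.348. Those of differently numbered libraries ran from -0.135 to 0.33. Deviations from a mean of 3 libraries constrain each other, so these values cannot show whether the numbers pair libraries. The labels do not say either. For the difference between genotypes, settings added after the data were seen called 2 genes with DESeq2's size factors or no filter, 1 with the block, 107 with DESeq2 and 1 to 17 with 1 library left out (10 without LF knockout replicate 1, 17 without HF knockout replicate 3).

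Of 2093 values for 125 named genes, 1548 kept direction and call, 340 lost the call, 197 gained it and 8 turned. Those were Csf3r at -0.22 and -0.11 without LF floxed replicate 1 or 2, S100a9 at 0.13 and 0.27 on FPKM, 0.47 with voom and 0.66 without LF floxed replicate 3, and Kdm5d at 0.027 and 0.046 on FPKM. Over fits without 1 library Csf3r ran from -0.22 to 1.29 and S100a9 from -0.72 to 0.66. Of 884 list medians 84 moved by more than the spread between replicates. Depth limits genes under about 1 FPKM, such as Thbs1, to few counts.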
